A study of Danio rerio with 16 samples.

Results

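The comparison described here was between 4 injured and 4 non-injured ankrd1a mutant zebrafish, 8 of the 16 muscle libraries of the series, chosen by their labels alone, with every gene of the count table taken in. The injured mutants were adults of the CRISPR/Cas9 line bns502 of ankrd1a, sampled 5 days after the dorsal tail muscle had been stabbed with a needle. The non-injured mutants carried the same allele and gave the matching region without a stab. The remaining 8 libraries, 4 injured and 4 non-injured wild type fish of the strain AB (Oregon), served to test where the mutant response differed. Every library held poly A RNA of 1 fish, so the replicates were animals, and the tissue around the wound was sequenced whole. The position of the lesion within the gene, the founders of the line and the age of the adults are not stated in the labels.

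Adult zebrafish muscle repairs a stab wound much as mammalian muscle does. Damaged fibres are cleared by phagocytes, satellite cells (the muscle stem cells, marked by Pax7) divide and differentiate, and their progeny fuse into new fibres while fibroblasts lay down matrix. New fibres first make developmental versions of the contractile proteins and only later regain their full metabolic and electrical equipment. Ankrd1, a small ankyrin repeat protein that shuttles between the sarcomere and the nucleus, is known as a gene that responds to stretch and damage in striated muscle.

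The libraries held 17324501 to 17994093 estimated counts in injured mutants and 17523729 to 19811579 in non-injured mutants, so depth was alike in both groups. CPM below are estimated counts per 1000000 of the library total scaled by TMM, a trimmed mean that sets most genes to no change. They compare 1 gene between fish, not different genes with each other, since transcript lengths were not used. A gene was called at an adjusted p below 0.05 in edgeR's quasi-likelihood test with Benjamini-Hochberg adjustment over all 16514 genes tested. The labelled tissue showed its markers: genes of fast fibres summed to 174600 to 222600 CPM in injured and 179200 to 318000 CPM in non-injured mutants. Log2 CPM values correlated across genes with r between 0.9675 and 0.9819 among injured fish and between 0.9612 and 0.9793 among non-injured fish, against 0.9231 to 0.9469 between the groups. The first principal component held 52.9% of the variance and separated the injured from the non-injured mutants. The second, with 13.2%, set non-injured replicate 4 apart at -39.7, the other 7 fish lying between -19.1 and 24.09.

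Injury raised 2306 genes (14.0% of those tested) and lowered 2190 (13.3%) in the mutants. Rises were larger than falls: 472 genes rose and 142 fell by at least 4-fold, and 35 rose and 8 fell by at least 32-fold. The CPM of the 4 injured fish did not overlap with those of the 4 non-injured fish for 2082 of the genes called higher and 1835 of those called lower, while 31.1% of all genes tested showed no overlap. The median gene moved by a log2 of -0.02. With library size as the only scaling it moved by 0.26, and the split became 3108 higher and 779 lower, so every direction below is relative to the median gene. With that scaling the larger falls, such as those of slow fibre and respiratory genes, kept their sign. The gene lists below were chosen with earlier results of these data known. Their shares beside those of all genes describe the lists and do not test them.

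Both genes with the symbol ANKRD1 rose, and they are given first because the edited gene bears that name. ANKRD1 (ENSDARG00000075263) had 147, 141, 90.05 and 148 CPM in the injured fish, against 1.19, 1.44, 1.16 and 1.09 CPM in the non-injured fish (log2 fold change 6.74, SE 0.31, adjusted p = 3.7e-09). Injured replicate 3 was the lowest of its group, yet it lay far above every non-injured fish. The other, ANKRD1 (ENSDARG00000076192), had 1.73, 1.48, 0.8397 and 1.31 CPM in the injured mutants and 0.0539, 0, 0 and 0.128 CPM in the non-injured mutants (adjusted p = 0.00063), and no fold is given for it since the 4 non-injured libraries together held at most 3 counts. The table of symbols does not say which ID is ankrd1a and which ankrd1b, so these levels do not check the genotype label. ANKRD2, a related gene of slow fibres in mammals, was too scarce to be tested.

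Contractile genes of the fast and developmental programme gave the largest rises in level, while slow fibre genes fell. The fast myosin heavy chain myhz2 had 7817, 7578, 4729 and 7822 CPM in the injured fish, against 98.2, 113, 71.6 and 110.3 CPM in the non-injured fish (log2 fold change 6.15, SE 0.28, adjusted p = 3.7e-09). Its relative myhz1.1 had 2407, 1556, 936 and 1948 CPM in the injured fish, against 8.999, 6.84, 7.08 and 11.1 CPM in the non-injured fish (log2 fold change 7.66, SE 0.47, adjusted p = 9.9e-08). In both, every injured fish exceeded every non-injured fish by more than an order of magnitude, and injured replicate 3 was the lowest of its group. A fast troponin I gene, TNNI2 (ENSDARG00000035958), had 146, 159.5, 99.7 and 130.1 CPM in the injured fish, against 0.97, 0.427, 0.317 and 0.895 CPM in the non-injured fish (log2 fold change 7.68, SE 0.50, adjusted p = 2.4e-07). The troponin T gene TNNT3 (ENSDARG00000030270) was all but absent without injury, with 80.3, 89.95, 37.05 and 84.8 CPM in the injured mutants and 0.162, 0, 0 and 0 CPM in the non-injured mutants (adjusted p = 5.6e-07). The actin gene ACTA1 (ENSDARG00000055618), which builds the thin filament, had 3594, 4617, 3170.0 and 4103 CPM in the injured fish, against 594, 423, 235 and 296 CPM in the non-injured fish (log2 fold change 3.32, SE 0.38, adjusted p = 2.6e-05). Each of these genes was lower in every non-injured mutant than in any injured one. Part of the naming rule takes only genes without overlap between the groups, so such separation partly follows from the choice of genes, here and below.

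Other fast genes did not take part or went the other way. The fast myosin heavy chain gene myhc4 had a log2 fold change of -0.09 (adjusted p = 0.86) and was not called. The copy myhz1.1l had 4326, 4704, 6070.0 and 4135 CPM in the injured fish, against 8874, 12120.0, 10920.0 and 7373 CPM in the non-injured fish and fell (log2 fold change -1.03, SE 0.23, adjusted p = 0.0044). Parvalbumins, which buffer calcium in fast fibres, split: pvalb2 rose (log2 fold change 1.2, SE 0.33, adjusted p = 0.013) and pvalb4 fell (log2 fold change -1.21, SE 0.25, adjusted p = 0.0029). The list of 48 tested fast and developmental contractile genes gave 15 rises and 10 falls, with a median log2 fold change of 0.15. It also holds slow fibre genes, such as tnni1c, which are described next. Of 22 fast fibre marker genes 7 rose and 2 fell (median 0.39), or 11 and 2 under library size scaling. RSEM shares reads between near-identical genes by probability, so the split among neighbouring myosin copies is less certain than their sum.

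Of 13 slow fibre markers tested, 8 fell and 0 rose (median -1.06), at a level that summed to 1283 to 1620 CPM in injured and 3170 to 4481 CPM in non-injured mutants. DESeq2 and the other tool settings also put the list's median below 0. The slow troponin I gene tnni1c had 44.8, 57.97, 46.6 and 42.2 CPM in the injured fish, against 236, 184, 277 and 231 CPM in the non-injured fish (log2 fold change -2.27, SE 0.23, adjusted p = 1.1e-05). The calcium pump of slow fibres, atp2a2a, had 338, 316, 311 and 246 CPM in the injured fish, against 1639, 918, 1393 and 1645 CPM in the non-injured fish (log2 fold change -2.21, SE 0.21, adjusted p = 5.9e-06). A troponin T gene expressed with them, tnnt2e, fell as well (-1.94, SE 0.18), as did TNNC1 (-1.45, SE 0.18), the regulatory light chain myl10 (-1.58, SE 0.20) and the tropomyosin tpm3 (-1.24, SE 0.17). In all 6 genes the highest injured fish was below the lowest non-injured fish. Since the samples are pieces of tissue, fewer cells of a type and less RNA per cell cannot be told apart, here and below.

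**Figure D1:**
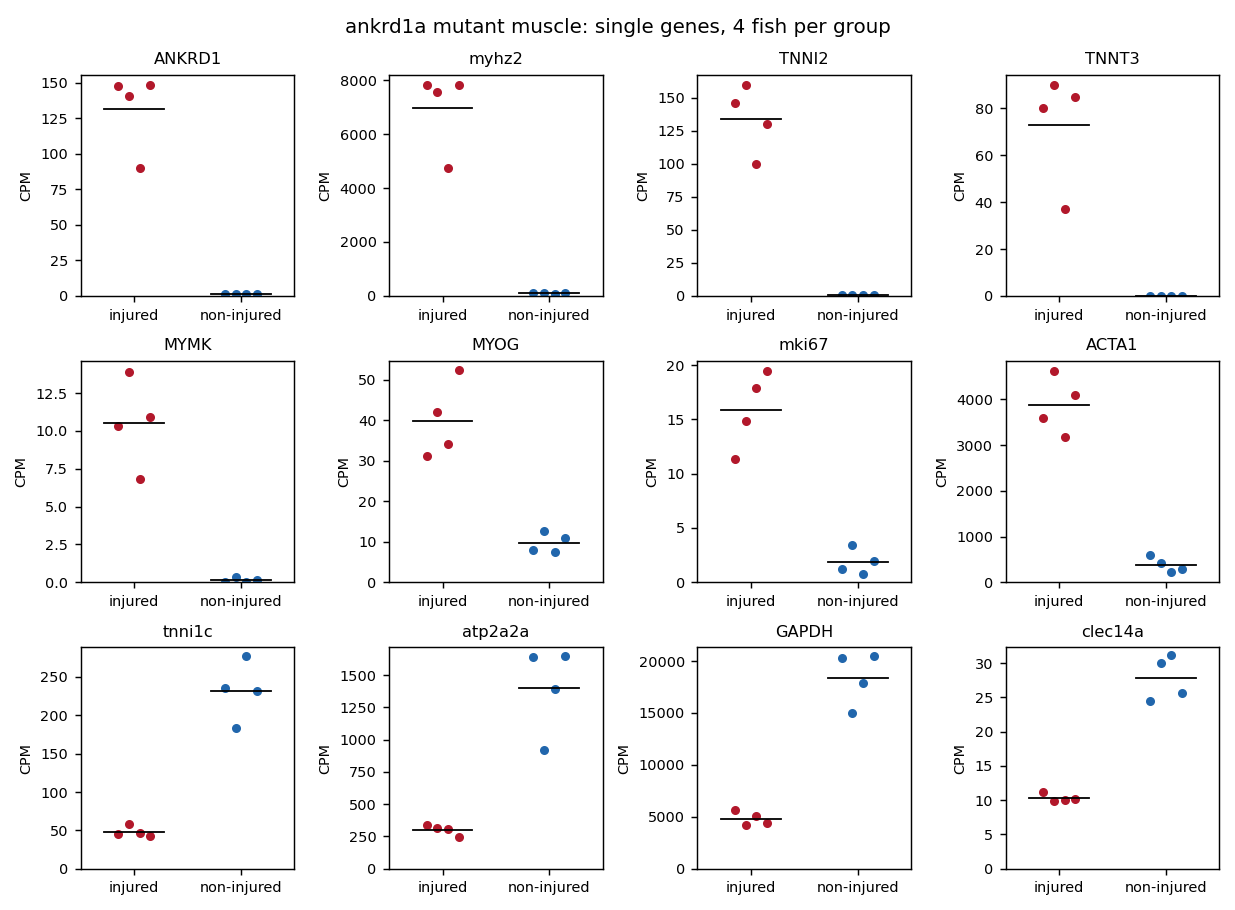
CPM of 12 genes in ankrd1a mutant muscle, each point 1 fish and each line the mean of 4, with injured fish at the left of each panel and a y axis from 0 in CPM. The regeneration genes in the first 8 panels are higher in every injured fish, and tnni1c, atp2a2a, GAPDH and clec14a are lower in every injured fish, than in any non-injured fish. Some of them were named by a rule that takes only genes without overlap between the groups.

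In the titin, Z-disc and M-band list 16 of 67 genes rose (23.9%, against 14.0% of all genes) and 6 fell (8.96%, against 13.3%). The median was 0.04. Those that rose besides ANKRD1 included the Z-disc protein PDLIM3 (ENSDARG00000014248) (3.28, SE 0.31), desmin DES (ENSDARG00000058656) (0.90, SE 0.15) and the M-band protein MYOM2, with 1952, 1852, 2089 and 2160.0 CPM in the injured fish, against 1157, 1147, 1045 and 1206 CPM in the non-injured fish (log2 fold change 0.82, SE 0.14, adjusted p = 0.00070). Among those that fell was igfn1.2, a sarcomere-associated immunoglobulin protein, with 0.14, 0.553, 0.0988 and 0.101 CPM in the injured fish, against 4.47, 5.61, 10.7 and 6.78 CPM in the non-injured fish (log2 fold change -4.89, SE 0.95, adjusted p = 0.0020). SMPX, a small stretch-related muscle protein, fell too (-1.42, SE 0.24). Of 45 chaperone genes 4 rose (8.89%, against 14.0% of all genes) and 7 fell (15.6%, against 13.3%). The falls numbered 4 without non-injured replicate 4. The list was thus near or below the shares of all genes. The heat shock cognate HSPA8 (ENSDARG00000068992) rose (1.39, SE 0.25), whereas a second gene of that symbol, HSPA8 (ENSDARG00000037403), fell (-1.81, SE 0.32). The myosin chaperones in this list were not among its called genes with the smallest p.

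Genes of satellite cells and of myoblast fusion were higher around the wound. Of 7 satellite cell markers 5 rose and 0 fell, with a median of 1.03. MEGF10, a receptor of satellite cells, had 16.01, 17.9, 20.99 and 22.5 CPM in the injured fish, against 5.39, 5.18, 5.86 and 6.65 CPM in the non-injured fish (log2 fold change 1.74, SE 0.13, adjusted p = 6.8e-07). The cadherin CDH15 (0.99, SE 0.15), the hepatocyte growth factor receptor MET (1.29, SE 0.23) and the stem cell factor PAX7 (ENSDARG00000070818) (1.03, SE 0.29) rose by about 2-fold. MYMK, the membrane protein that makes myoblasts fuse, had 10.3, 13.9, 6.82 and 10.9 CPM in the injured fish, against 0, 0.374, 0 and 0.128 CPM in the non-injured fish (log2 fold change 6.32, SE 0.56, adjusted p = 2.9e-06). Its partner in fusion, mymx, rose less (1.42, SE 0.25). MYOG, the transcription factor that opens terminal differentiation, had 31.2, 41.9, 34.03 and 52.3 CPM in the injured fish, against 7.98, 12.8, 7.396 and 11 CPM in the non-injured fish (log2 fold change 2.03, SE 0.21, adjusted p = 1.2e-05). The earlier regulators did not move with it: MYOD1 had a log2 fold change of -0.07 (adjusted p = 0.80) and MYF5 of 0.18 (adjusted p = 0.44). The insulin-like growth factor igf2b rose (2.08, SE 0.23). Over the 55 genes of this wider list 14 rose (25.5%, against 14.0% of all genes) and 5 fell (9.09%, against 13.3%). The median was 0.02.

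Mitosis and spindle genes rose almost as a block. Of 51 mitosis and spindle genes 45 rose and 0 fell, with a median log2 fold change of 2.48, against 14.0% higher among all genes. The proliferation marker mki67 had 11.4, 14.8, 17.9 and 19.4 CPM in the injured fish, against 1.24, 3.47, 0.792 and 1.92 CPM in the non-injured fish (log2 fold change 3.09, SE 0.36, adjusted p = 3.4e-05). The checkpoint kinase bub1 had 1.77, 2.63, 2.47 and 2.26 CPM in the injured fish, against 0.216, 0.214, 0.211 and 0.128 CPM in the non-injured fish (log2 fold change 3.52, SE 0.37, adjusted p = 1.4e-05). The topoisomerase TOP2A (2.93, SE 0.35), the cytokinesis scaffold anln (2.89, SE 0.31) and lamin B1, LMNB1 (1.88, SE 0.20), followed. Injured replicate 1 had the lowest mki67, TOP2A and LMNB1 of its group and still exceeded all non-injured fish. Of 49 DNA replication genes 26 rose and 1 fell (median 1.05), among them the histone chaperone chaf1a (2.21, SE 0.27), the thymidylate synthase TYMS (2.55, SE 0.37) and the origin licensing factor CDC6 (3.05, SE 0.48). RPA1, a single-strand DNA binding protein, was the one that fell (-0.51, SE 0.12).

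Collagens and other matrix genes rose far more often than they fell, though many were not called. Of 39 collagen genes 25 rose and 0 fell, with a median of 1.42. COL1A1, a chain of the main fibrillar collagen, had 3045, 2419, 2815 and 2683 CPM in the injured fish, against 1005, 1051, 881 and 949 CPM in the non-injured fish (log2 fold change 1.5, SE 0.18, adjusted p = 5.0e-05). COL5A1, which helps to nucleate fibrils, had 1019, 695, 939.5 and 796 CPM in the injured fish, against 256, 256, 210.4 and 266 CPM in the non-injured fish (log2 fold change 1.8, SE 0.16, adjusted p = 3.3e-06). Both genes of the fibril-associated collagen XII, COL12A1 (ENSDARG00000019601) (2.9, SE 0.22) and COL12A1 (ENSDARG00000078322) (2.23, SE 0.22), rose by more than 4-fold, as did col11a1b (2.15, SE 0.17). The 4 injured fish ranged from 2419 to 3045 CPM in COL1A1 and from 695 to 1019 CPM in COL5A1, above every non-injured fish in both. Of 98 matrix glycoproteins, crosslinkers and proteases 56 rose and 5 fell (median 0.77); in the 8 fits without 1 mutant library each, 2 to 4 fell. CILP, a matrix protein of cartilage and connective tissue, had 328, 271, 304 and 286 CPM in the injured fish, against 62.9, 64.1, 60.3 and 68.6 CPM in the non-injured fish (log2 fold change 2.22, SE 0.12, adjusted p = 2.0e-08). The membrane-bound protease MMP14 (ENSDARG00000008388) (2.18, SE 0.19), the collagen crosslinker LOXL2 (1.51, SE 0.14), the laminin chain LAMB1 (ENSDARG00000101209) (1.93, SE 0.16) and the laminin receptor subunit ITGA6 (3.67, SE 0.26) rose. BMP1, which trims procollagens, rose as BMP1 (ENSDARG00000028071) (1.98, SE 0.20). Fibroblast and tenocyte markers, of which 14 of 22 rose and 0 fell, summed to 9058 to 10670 CPM in injured and 3265 to 3878 CPM in non-injured mutants; this list shares collagen and matrix genes with the others.

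Macrophage genes rose, and markers of lymphocytes showed little. Of 24 macrophage markers 20 rose and 0 fell (median 1.67), and their sum was 452 to 686 CPM in injured and 215.5 to 274.4 CPM in non-injured mutants. The transcription factor IRF8, needed for macrophages in zebrafish, had 16.3, 11.98, 12.5 and 15.1 CPM in the injured fish, against 2.86, 2.35, 2.54 and 2.05 CPM in the non-injured fish (log2 fold change 2.51, SE 0.25, adjusted p = 8.5e-06). The pore-forming protein MPEG1 (ENSDARG00000055290), a common zebrafish macrophage marker, had 26.8, 21.5, 21.4 and 16.4 CPM in the injured fish, against 3.77, 5.02, 3.01 and 4.86 CPM in the non-injured fish (log2 fold change 2.37, SE 0.36, adjusted p = 0.00034). Every injured fish was above every non-injured fish in both. Of 7 neutrophil markers 3 rose (1 without non-injured replicate 1 or 3) and 1 fell. The gelatinase MMP9, which macrophages and epithelia also make, rose (3.23, SE 0.80). Of 9 lymphocyte markers 1 rose, RAG2, a subunit of the enzyme that cuts antigen receptor genes in developing lymphocytes. It had only 0.793, 1.24, 0.939 and 0.653 CPM in the injured mutants and 0, 0.0534, 0.0528 and 0.06396 CPM in the non-injured mutants (adjusted p = 6.3e-05).

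Genes of clearance also rose more often than they fell, in lists that share members with the macrophage markers, such as c1qb. Of 53 complement, phagocytosis and lipid clearance genes 24 rose and 6 fell (median 0.64), or 3 without injured replicate 4. The complement recognition gene c1qb had 18.7, 29.4, 23.8 and 19.8 CPM in the injured fish, against 5.01, 2.99, 3.91 and 6.78 CPM in the non-injured fish (log2 fold change 2.3, SE 0.39, adjusted p = 0.00067). The anaphylatoxin receptor c5ar1 rose (3.03, SE 0.50), as did the scavenger receptors LRP1 (ENSDARG00000029146) (1.6, SE 0.21) and LRP1 (ENSDARG00000097827) (1.2, SE 0.20). A lipoprotein lipase gene, LPL (ENSDARG00000087697), fell (-1.52, SE 0.37). Of 74 lysosome and proton pump genes 25 rose (33.8%, against 14.0% of all genes) and 6 fell (8.11%, against 13.3%). Their median was 0.29, and the falls numbered 3 without injured replicate 2. Cathepsins were among the rises of smallest p, with ctsla (1.59, SE 0.19), the collagen-degrading CTSK (1.91, SE 0.26) and CTSZ (1.4, SE 0.22). The falls were mostly subunits of the proton pump, such as ATP6V0C (ENSDARG00000036577) (-0.93, SE 0.13) and ATP6V1G1 (-0.60, SE 0.12). A second gene of the first symbol, ATP6V0C (ENSDARG00000057853), was called higher (0.52, SE 0.17, adjusted p = 0.030), with overlap between the groups. The macrophage marker sum given above was higher in every injured fish, and its part in the counts of these lists was not tested.

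Many immediate early and cytokine genes rose. Of 48 immediate early and AP-1 genes 25 rose and 1 fell (median 0.76). The AP-1 subunit FOSL1 had 6.16, 6.27, 2.12 and 7.38 CPM in the injured fish, against 0.162, 0.374, 0.423 and 0.6396 CPM in the non-injured fish (log2 fold change 3.78, SE 0.47, adjusted p = 5.1e-05), and FOSL2 had 29.4, 22.1, 17.6 and 30.6 CPM in the injured fish, against 1.08, 2.14, 1.96 and 2.88 CPM in the non-injured fish (log2 fold change 3.64, SE 0.44, adjusted p = 5.4e-05). Injured replicate 3 was lowest in both and still above all non-injured fish. The MAP kinase phosphatases DUSP4 (2.36, SE 0.26) and DUSP5 (2.73, SE 0.32) rose as well. Of 54 chemokine, interleukin and TNF family genes 20 rose (37%, against 14.0% of all genes) and 4 fell (7.41%, against 13.3%). The feedback inhibitor SOCS3 (ENSDARG00000026611) had 43.9, 32.4, 23.8 and 39.1 CPM in the injured fish, against 5.87, 6.198, 5.18 and 5.88 CPM in the non-injured fish (log2 fold change 2.59, SE 0.23, adjusted p = 2.5e-06). Both leptin genes appeared. lepa had 1.63, 1.71, 0.642 and 2.31 CPM in the injured mutants and 0, 0, 0 and 0 CPM in the non-injured mutants, at least 37.7-fold higher in the injured fish than a floor of 3 counts over the 4 non-injured libraries (adjusted p = 0.00040). lepb had 1.68, 1.57, 0.642 and 1.76 CPM in the injured mutants and 0, 0.0534, 0 and 0 CPM in the non-injured mutants (adjusted p = 0.00049). The signal-transducing receptor subunits il6st (0.85, SE 0.14) and lifrb (1.48, SE 0.20) rose. Of 66 TGF-beta, BMP and activin genes 17 rose and 5 fell (3 without injured replicate 1 or 4 or non-injured replicate 4). The rises were 25.8% of the list, against 14.0% of all genes, and the falls 7.58%, against 13.3%. The rises of smallest p included the receptor TGFBR2 (ENSDARG00000059363) (2.05, SE 0.23) and the secreted FSTL1 (ENSDARG00000039576) (1.42, SE 0.17). Of 85 WNT, NOTCH and FGF genes 16 rose and 8 fell, shares near those of all genes. The falls numbered 4 without injured replicate 2 or 4 or non-injured replicate 4, and 5 without injured replicate 1, without non-injured replicate 1 or with the replicate number as a block. Within that list the FGF-responsive factors ETV4 (0.81, SE 0.14) and etv5b (0.84, SE 0.15) rose, and HEY2, a Notch target of arteries, fell (-1.41, SE 0.31).

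Protein synthesis genes rose in part while ribosomal proteins stayed near the median gene. Of 74 cytosolic ribosomal protein genes 0 rose and 2 fell in edgeR (median 0.03), and 2 rose without non-injured replicate 4. Under library size scaling 13 of the 74 were called higher. In the list of ribosome biogenesis, translation factors and tRNA synthetases 19 of 72 rose and 3 fell, and the rises numbered 11 without injured replicate 2 and 12 without non-injured replicate 1. The elongation factor eef2b had 1086, 1318, 939 and 1324 CPM in the injured fish, against 246, 272, 259.9 and 345 CPM in the non-injured fish (log2 fold change 2.06, SE 0.22, adjusted p = 1.3e-05). The asparagine tRNA synthetase NARS1 (1.32, SE 0.20) and DKC1, of the RNA-modifying snoRNPs (1.08, SE 0.16), rose, and RRN3, a factor of RNA polymerase I, fell (-0.95, SE 0.17). RPL22L1, a paralogue of a ribosomal protein, had 41.5, 60.1, 44.2 and 51.4 CPM in the injured fish, against 7.33, 9.14, 9.72 and 10.04 CPM in the non-injured fish (log2 fold change 2.44, SE 0.17, adjusted p = 3.1e-07). Of 76 secretory pathway genes 25 rose (16 without injured replicate 4 or non-injured replicate 3) and 2 fell. Without injured replicate 1, 2 or 4 the falls numbered 0. Among the rises were the vesicle coat subunits SEC31A (1.1, SE 0.17) and SEC24D (1.15, SE 0.19) and the chaperone calr3b (1.04, SE 0.12).

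Genes of protein breakdown and growth control fell more often than they rose with TMM scaling. Under library size scaling this order turned round for the growth control list and the proteasome list. Of 86 genes of the IGF, growth hormone and catabolic list 8 rose (9.3%, against 14.0% of all genes) and 28 fell (32.6%, against 13.3%). Their median was -0.50. With library size as the only scaling 9 rose and 7 fell. The falls numbered 17 without injured replicate 2, 16 without injured replicate 4 and 15 without non-injured replicate 1, and the rises 5 without injured replicate 2 or non-injured replicate 3 or 4. The growth hormone receptor ghrb had 10.04, 24.1, 20.8 and 20.3 CPM in the injured fish, against 84.1, 67.4, 52.4 and 175 CPM in the non-injured fish (log2 fold change -2.33, SE 0.46, adjusted p = 0.0020). PIK3IP1, an inhibitor of PI3 kinase, had 17.7, 10.97, 14.3 and 12.8 CPM in the injured fish, against 57.7, 28.8, 31.9 and 59.9 CPM in the non-injured fish (log2 fold change -1.68, SE 0.29, adjusted p = 0.00079). The autophagy genes MAP1LC3A (-1.05, SE 0.19) and BNIP3 (-1.55, SE 0.29) fell, as did METTL21C (ENSDARG00000055437), a methyltransferase of muscle (-2.32, SE 0.44). Of 38 cullin adaptor genes of muscle 3 rose (7.89%, against 14.0% of all genes) and 16 fell (42.1%, against 13.3%). Their median was -0.37, and under library size scaling 4 rose and 10 fell (median -0.08). The falls included ASB14 (ENSDARG00000008473) (-1.91, SE 0.23), klhl33 (-2.77, SE 0.43) and KBTBD12 (-0.98, SE 0.18), and the rises included KLHL40 (ENSDARG00000019125) (1.55, SE 0.30) and KLHL41 (ENSDARG00000068888) (0.70, SE 0.20), whose human counterparts are nemaline myopathy genes. Of 54 proteasome subunit genes 1 rose and 8 fell, a share of falls close to that of all genes. Under library size scaling 2 rose and 0 fell, and their median of -0.19 turned to 0.10. The proteasome falls numbered 3 to 5 without injured replicate 3 or 4 or non-injured replicate 3 or 4, and 14 with DESeq2.

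**Figure D2:**
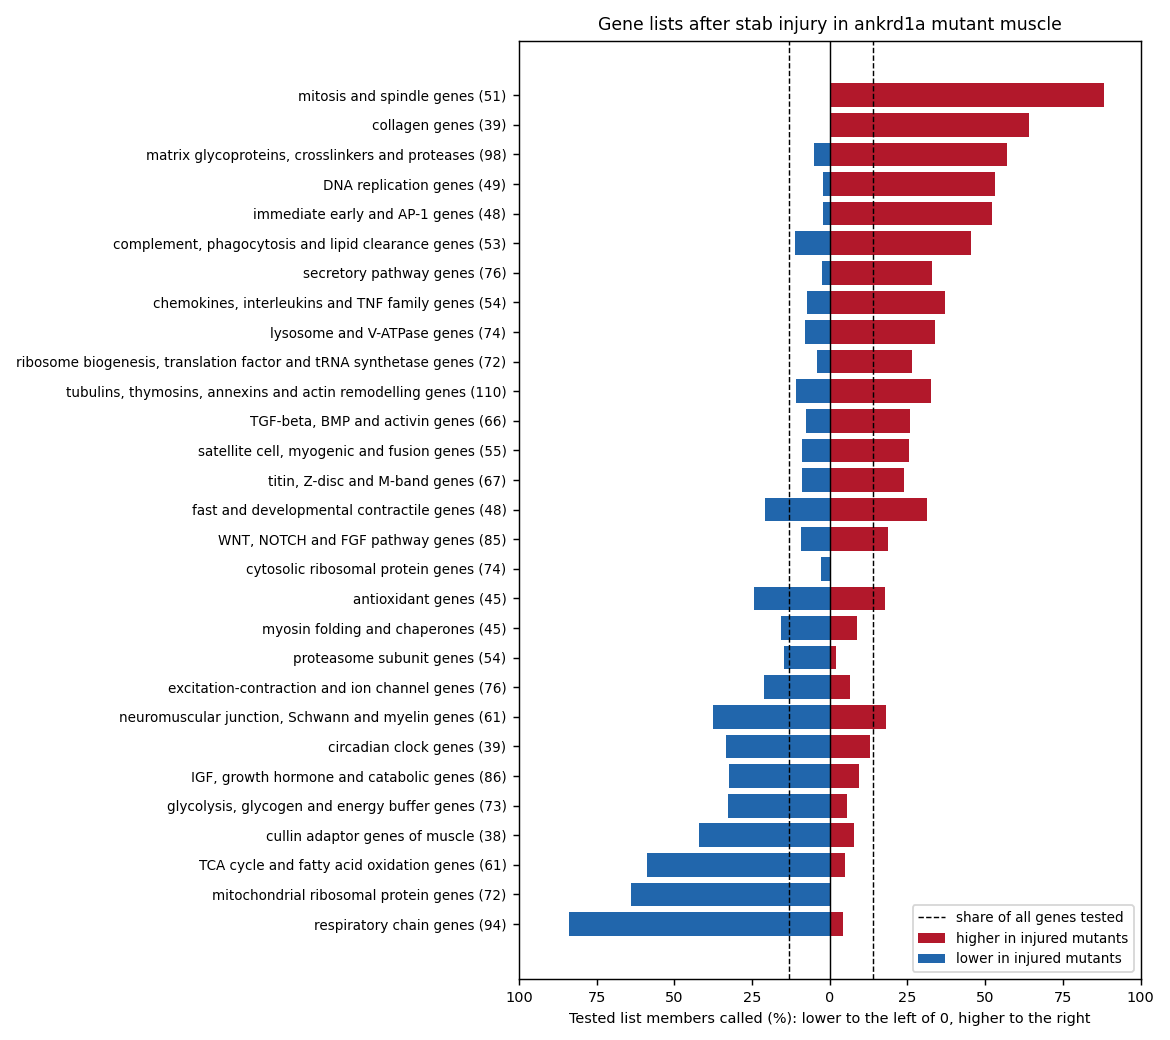
Share of tested members of 29 gene lists called higher (red, right of 0) or lower (blue, left of 0) in injured against non-injured ankrd1a mutants, in percent, with the number tested in parentheses and dashed lines at the 14.0% and 13.3% of all genes tested. Mitosis and collagen genes stand at the top with 0 members lower, and respiratory chain genes at the bottom with 79 of 94 lower. The lists were chosen with earlier results of these data known.

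Energy metabolism fell, in mitochondrial genes most of all. Of 94 nuclear respiratory chain genes 79 fell and 4 rose (median -0.94), and their sum was 15480 to 19600 CPM in injured and 29930 to 33990 CPM in non-injured mutants. By complex, 36 of 38 genes of complex I fell, 3 of 4 of complex II, 8 of 10 of complex III, 13 of 20 of complex IV (cytochrome c oxidase) and 18 of 19 of ATP synthase and its inhibitors. The complex I subunit NDUFA2 had 43.3, 35.6, 37.8 and 37.97 CPM in the injured fish, against 91.1, 86.3, 88.96 and 84.6 CPM in the non-injured fish (log2 fold change -1.18, SE 0.18, adjusted p = 0.00030). The median log2 fold change was -1.02 in complex I, -0.96 in complex II, -0.84 in complex III, -0.94 in complex IV and -0.87 in ATP synthase. With library size as the only scaling 56 of the 94 were still called lower, and the median was -0.67.

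Transcripts of the mitochondrial genome fell too. These genes were taken up after their values had been seen. Of the 11 MT- genes tested 9 fell and 0 rose, with log2 fold changes from -1.24 to -0.77 and a median of -1.0. MT-CO1, a core subunit of cytochrome c oxidase, had 28440.0, 22580.0, 20630.0 and 20890.0 CPM in the injured fish, against 56890.0, 44560.0, 45490.0 and 45570.0 CPM in the non-injured fish (log2 fold change -1.06, SE 0.23, adjusted p = 0.0035). Their summed CPM came to 8.75%, 6.39%, 6.39% and 7.02% of 1000000 in the injured mutants and 16.9%, 14.1%, 13.3% and 12.2% in the non-injured mutants. This scaled sum was lower in every injured fish than in any non-injured fish. It is not a share of the library's counts, since CPM scaled by TMM do not add up to 1000000. The scaling factor was 1.205 in injured replicate 1 and 0.8403 in non-injured replicate 4. With these factors undone, the sum of injured replicate 1 lay above that of non-injured replicate 4. Shares of the unscaled counts therefore overlapped between the groups, and the full separation held only with the scaling. The 2 that were not called were MT-ND1 (-0.77, SE 0.30, adjusted p = 0.066) and MT-ND6 (-1.01, SE 0.37, adjusted p = 0.053).

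All 4 respiratory genes that rose encode cytochrome c oxidase subunits, and for each a gene of the same subunit fell. cox6a1 had 57.9, 66.9, 42.2 and 61.6 CPM in the injured fish, against 11.6, 15.6, 15.9 and 12.8 CPM in the non-injured fish (log2 fold change 2.03, SE 0.18, adjusted p = 2.5e-06), whereas COX6A1 (ENSDARG00000054588) had 374, 284, 284 and 296 CPM in the injured fish, against 767, 663, 837 and 731 CPM in the non-injured fish (log2 fold change -1.27, SE 0.26, adjusted p = 0.0024). Of the COX5B genes, COX5B (ENSDARG00000015978) had 31.1, 31.9, 24.5 and 32.2 CPM in the injured fish, against 10.4, 10.4, 12.4 and 9.27 CPM in the non-injured fish (log2 fold change 1.49, SE 0.19, adjusted p = 6.2e-05), and COX5B (ENSDARG00000068738) had 265, 245, 313 and 266 CPM in the injured fish, against 555, 593, 608 and 592 CPM in the non-injured fish (log2 fold change -1.11, SE 0.25, adjusted p = 0.0043). For subunit 8, cox8a rose (0.71, SE 0.18) and cox8b fell (-1.19, SE 0.24). For subunit 7a, COX7A2 (ENSDARG00000053217) rose (0.81, SE 0.22) and cox7a1, the counterpart of the mammalian muscle form, fell (-1.24, SE 0.20). A second ID with the symbol COX7A2, COX7A2 (ENSDARG00000110700), was not called (0.01, SE 0.30, adjusted p = 0.98). In the COX7A2 gene that rose, 1 non-injured fish lay within the range of the injured group, and in the other 7 called genes the groups did not overlap. The steepest fall of complex IV was that of cox4i1l, with 12.6, 9.59, 11.4 and 11.4 CPM in the injured fish, against 47.5, 51.2, 64.8 and 45.7 CPM in the non-injured fish (log2 fold change -2.22, SE 0.21, adjusted p = 4.3e-06).

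**Figure D3:**
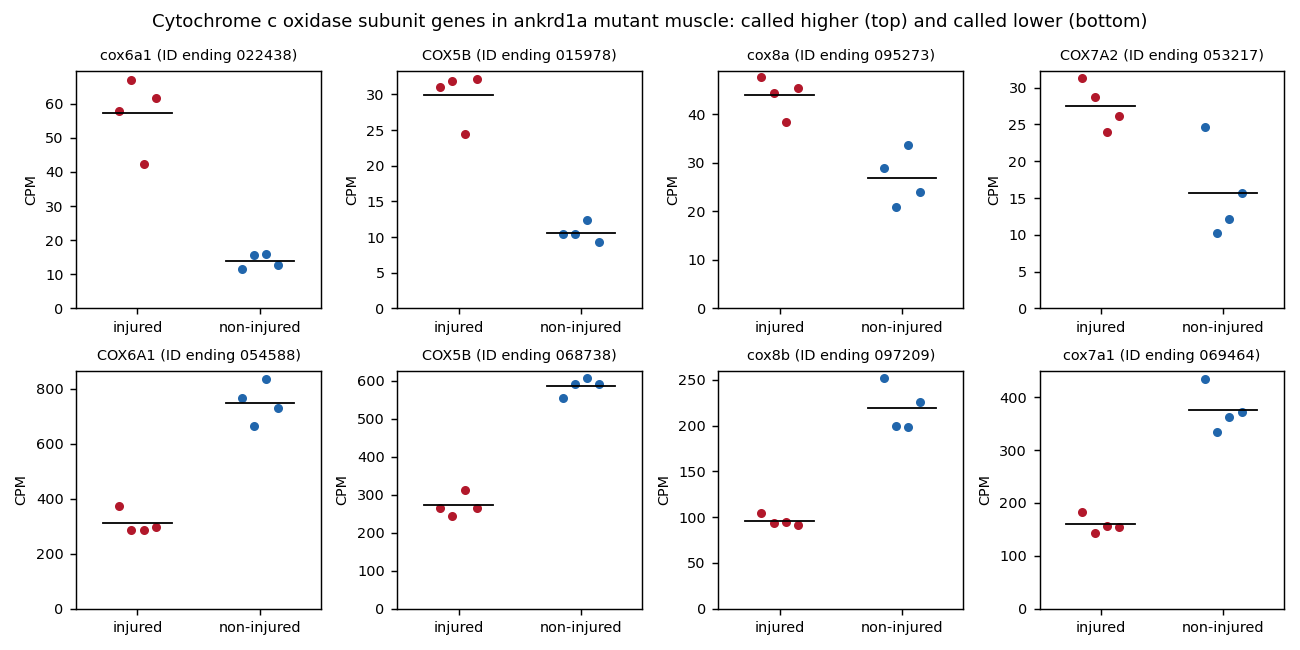
CPM of 4 pairs of cytochrome c oxidase subunit genes in ankrd1a mutants, each point 1 fish and each line the mean of 4, with injured fish at the left of each panel and a y axis from 0 in CPM. In the top row (cox6a1, COX5B, cox8a, COX7A2) the injured fish are higher, and in the bottom row (COX6A1, COX5B, cox8b, cox7a1) they are lower; the non-injured group overlaps the injured one in COX7A2.

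Other mitochondrial lists fell too. Of 61 genes of the TCA cycle and fatty acid oxidation 36 fell and 3 rose (median -0.82), and under library size scaling 19 fell (median -0.53). The malate dehydrogenase MDH2 (-1.11, SE 0.17), the isocitrate dehydrogenase IDH2 (-1.07, SE 0.19) and the fatty acid dehydrogenase ACADM (-1.61, SE 0.25) fell, and so did pparaa, a receptor that drives fatty acid oxidation, with 3.55, 4.38, 4.001 and 3.06 CPM in the injured fish, against 10.2, 9.99, 10.7 and 8.95 CPM in the non-injured fish (log2 fold change -1.41, SE 0.16, adjusted p = 2.0e-05). The rises were the pyruvate carboxylase PC (ENSDARG00000098766) (1.85, SE 0.24), UCP2, a carrier known from macrophages among other cells (1.59, SE 0.26), and OGDH (0.55, SE 0.15). Of 72 mitochondrial ribosomal protein genes 46 fell and 0 rose (median -0.66), with MRPS35 (-1.12, SE 0.15) and mrpl18 (-1.18, SE 0.17) among those of smallest p. Under library size scaling 17 of the 72 were called lower.

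Glycolytic and energy buffer genes followed. Of 73 genes 24 fell (32.9%, against 13.3% of all genes) and 4 rose (5.48%, against 14.0%). Their median was -0.49, and under library size scaling 15 fell and 5 rose (median -0.21). The sum was 90600 to 103100 CPM in injured and 141600 to 215100 CPM in non-injured mutants. GAPDH had 5655, 4220.0, 5073 and 4375 CPM in the injured fish, against 20270.0, 15010.0, 17860.0 and 20500.0 CPM in the non-injured fish (log2 fold change -1.93, SE 0.25, adjusted p = 8.0e-05). The muscle creatine kinase ckmb had 18330.0, 19860.0, 18030.0 and 19310.0 CPM in the injured fish, against 46780.0, 33170.0, 40470.0 and 53630.0 CPM in the non-injured fish (log2 fold change -1.2, SE 0.26, adjusted p = 0.0036), and ckma fell as well (-1.04, SE 0.28). The brain-type creatine kinase went the other way, CKB (ENSDARG00000069752) having 56.1, 42.95, 57.6 and 52.5 CPM in the injured fish, against 14.7, 12.4, 10.6 and 11.96 CPM in the non-injured fish (log2 fold change 2.07, SE 0.17, adjusted p = 1.3e-06). The aldolase ALDOA (ENSDARG00000011665) (-1.46, SE 0.30), the muscle phosphofructokinase PFKM (ENSDARG00000060797) (-1.03, SE 0.20) and the regulator pfkfb1 (-1.33, SE 0.21) fell. Every injured fish was below every non-injured fish in those of them that fell.

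Of 76 excitation-contraction and ion channel genes 5 rose (3 without injured replicate 2 or non-injured replicate 2 or 3) and 16 fell, with a median of -0.17. The rises were 6.58% of the list, against 14.0% of all genes, and the falls 21.1%, against 13.3%. Under library size scaling 11 rose and 10 fell, with a median of 0.08. The calcium release channel RYR1 (ENSDARG00000011422) had 77.9, 81.05, 77.2 and 48.97 CPM in the injured fish, against 266, 145, 182 and 149 CPM in the non-injured fish (log2 fold change -1.38, SE 0.24, adjusted p = 0.00074). The voltage sensor subunit CACNA1S (ENSDARG00000029457) fell (-1.09, SE 0.20). The rise of smallest p in this list was that of rcan1a, a feedback inhibitor of the phosphatase calcineurin, which is taken up with the genotypes below.

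Of 61 neuromuscular junction, Schwann cell and myelin genes 11 rose (18%, against 14.0% of all genes) and 23 fell (37.7%, against 13.3%). Their median was -0.34. CHRNG, the fetal subunit of the muscle acetylcholine receptor, had 11.8, 8.801, 6.77 and 11.4 CPM in the injured fish, against 0.808, 0.748, 0.423 and 0.832 CPM in the non-injured fish (log2 fold change 3.78, SE 0.35, adjusted p = 3.8e-06). The adult subunit CHRNE, named after its value was seen, had a log2 fold change of -0.21 and was not called (adjusted p = 0.31). The intermediate filament nes, made in young myofibres and neural progenitors, had 23.4, 20.3, 19.1 and 28.4 CPM in the injured fish, against 1.67, 1.496, 3.38 and 1.92 CPM in the non-injured fish (log2 fold change 3.42, SE 0.25, adjusted p = 4.0e-07). The adhesion molecule NCAM1 (ENSDARG00000056181) (2.02, SE 0.25) and the growth factor NRG1 (2.04, SE 0.26) rose. Myelin genes fell: mbpa had 52.9, 49.8, 45.05 and 43.5 CPM in the injured fish, against 100.2, 193, 135 and 105 CPM in the non-injured fish (log2 fold change -1.48, SE 0.19, adjusted p = 6.2e-05), and mbpb (-0.99, SE 0.14) and plp1b (-1.39, SE 0.24) followed. Schwann cell markers gave 7 falls and 0 rises among 13, or 4 falls under library size scaling. Their sum was 440.2 to 532 CPM in injured and 632.1 to 803.1 CPM in non-injured mutants.

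Markers of vessels fell. Of 25 endothelial markers 14 fell and 0 rose (median -0.58), with a sum of 349.1 to 435.4 CPM in injured and 596.7 to 665.6 CPM in non-injured mutants. With library size as the only scaling 4 of the 25 were called lower and the median was -0.31. The endothelial lectin clec14a, the gene of smallest p among all falls by the naming rule, had 11.2, 9.86, 10.03 and 10.2 CPM in the injured fish, against 24.4, 29.97, 31.2 and 25.6 CPM in the non-injured fish (log2 fold change -1.43, SE 0.13, adjusted p = 3.5e-06). The transcription factor SOX7 had 9.195, 8.57, 8.69 and 11.1 CPM in the injured fish, against 20.1, 19.8, 23.2 and 16.8 CPM in the non-injured fish (log2 fold change -1.09, SE 0.13, adjusted p = 3.4e-05). The VEGF receptors flt1 (-0.91, SE 0.18) and KDR (-0.77, SE 0.18) fell. Of 17 smooth muscle and pericyte markers 2 rose (11.8%, against 14.0% of all genes) and 4 fell (23.5%, against 13.3%). Only 1 rose with the replicate number as a block or without injured replicate 4. The pericyte gene RGS5 fell (-1.39, SE 0.26) and the proteoglycan CSPG4 rose (1.05, SE 0.15).

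Markers of further cell types were counted because the dissected piece can hold skin, scale, fat, pigment cells and blood. Of 23 epidermal markers 1 rose and 1 fell, although their median was 1.19. Without non-injured replicate 2, the fish with the highest sum of its group, 6 rose and 0 fell (median 2.8), and without injured replicate 3 the rises numbered 2. Their sums overlapped at 1004 to 1751 CPM in injured and 642.2 to 1421 CPM in non-injured mutants. Of 16 bone and scale markers 1 rose (2 without non-injured replicate 2), at 136.1 to 241.3 CPM in injured and 105.6 to 166.9 CPM in non-injured mutants. Of 13 adipocyte markers 3 rose, both leptins included, and 5 fell (3 without injured replicate 4), among them the adipokine gene ADIPOQ (ENSDARG00000100086) (-1.49, SE 0.31). Of 11 erythrocyte markers 0 rose and 5 fell (45.5%, against 13.3% of all genes), or 3 without injured replicate 4 or non-injured replicate 1. Their sums overlapped at 232.3 to 365.1 CPM in injured and 171.6 to 547.5 CPM in non-injured mutants. Of 11 pigment cell markers 2 rose (18.2%, against 14.0% of all genes) and 1 fell (9.09%, against 13.3%). Only 1 rose with DESeq2, without injured replicate 1 or 4, or without any 1 of the non-injured replicates. In some fits without 1 library 0 fell. The share of skin or blood in each piece was not measured otherwise, and its part in the results was not tested.

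**Figure D4:**
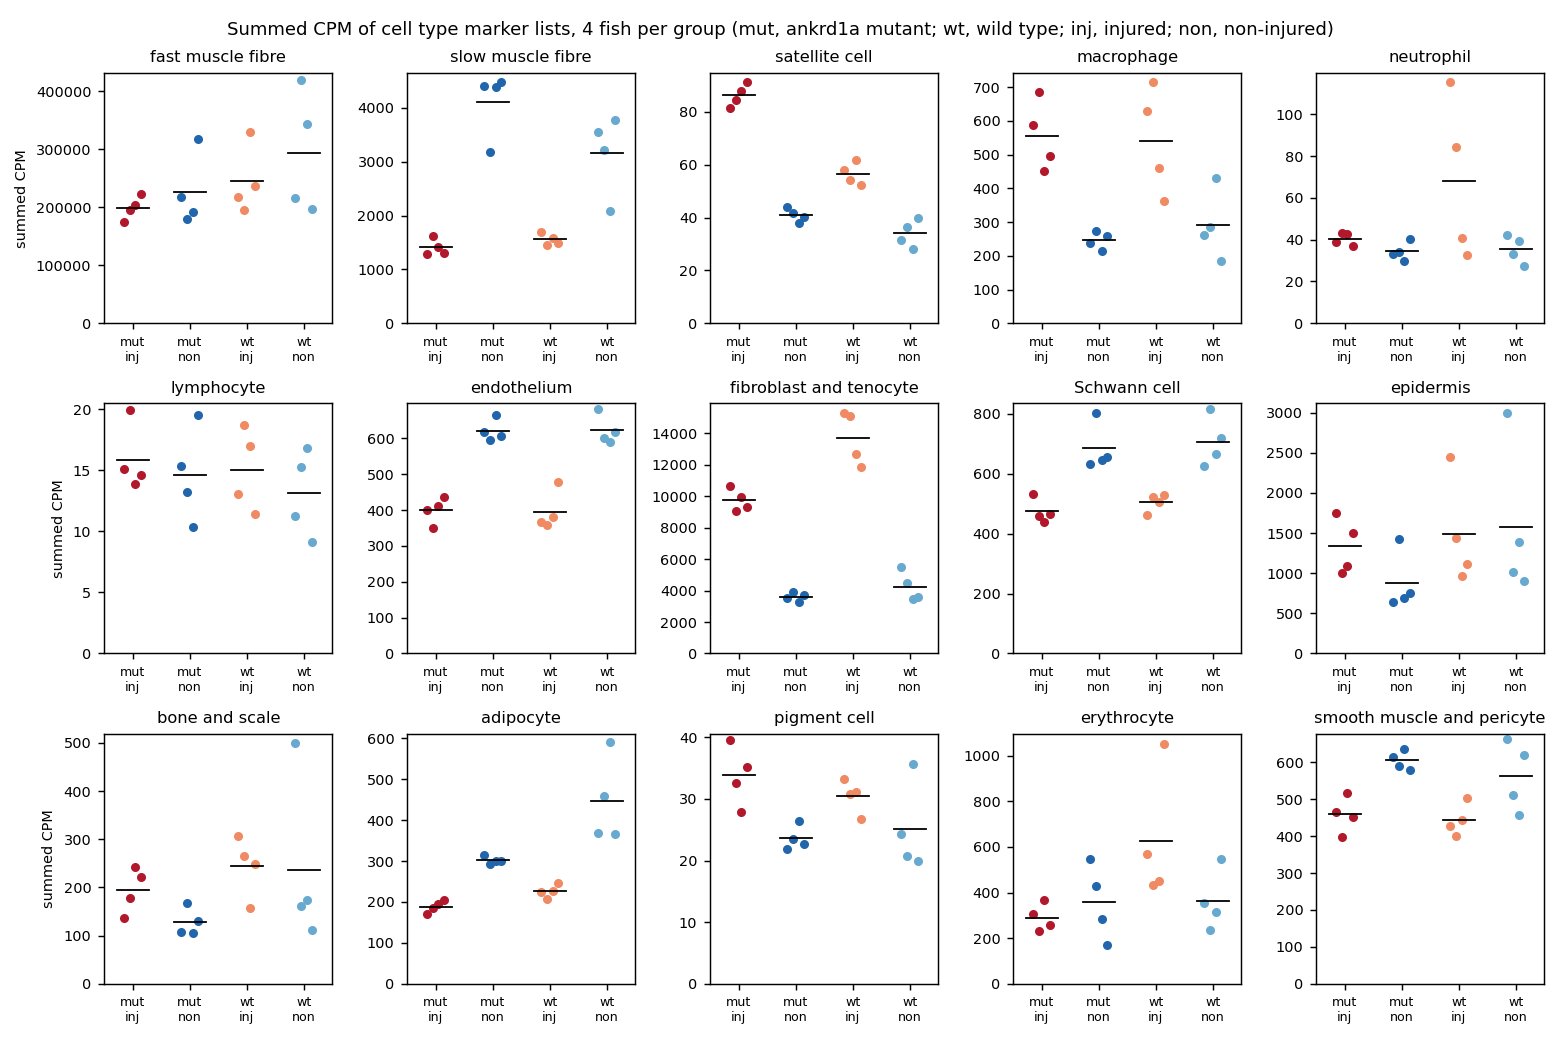
Summed CPM of 15 cell type marker lists, each point 1 fish and each line the mean of 4, for injured and non-injured ankrd1a mutants and then injured and non-injured wild type, with y axes from 0 in CPM. In mutants the macrophage, satellite cell, fibroblast and pigment cell sums are higher in every injured fish than in any non-injured fish. The slow fibre, endothelium, Schwann cell, adipocyte, and smooth muscle and pericyte sums are lower in every injured fish. The sums of the other lists, such as epidermis and erythrocyte, overlap.

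Cytoskeletal genes rose more often than they fell. Of 110 genes of tubulins, thymosins, annexins and actin remodelling 36 rose (32.7%, against 14.0% of all genes) and 12 fell (10.9%, against 13.3%). Their median was 0.41, and the falls numbered 6 without injured replicate 4 and 7 without non-injured replicate 3. The beta thymosin tmsb, which binds actin monomers, had 27.7, 28.1, 19.8 and 37.3 CPM in the injured fish, against 0.269, 0.641, 0.3698 and 0.192 CPM in the non-injured fish (log2 fold change 6.22, SE 0.35, adjusted p = 3.6e-08). The tubulins tuba1b (2.43, SE 0.19) and tubb6 (3.41, SE 0.38) and the focal adhesion protein ZYX (1.88, SE 0.20) rose, and the tubulin tuba8l2 fell (-0.90, SE 0.17). Among 45 antioxidant genes 8 rose (17.8%, against 14.0% of all genes) and 11 fell (24.4%, against 13.3%). Their median of 0.03 was close to that of all genes. Under library size scaling 11 rose and 4 fell (median 0.33), so the balance of these genes depends on the scaling. The thioredoxin txnb had 52.8, 36.8, 30.8 and 42.4 CPM in the injured fish, against 0.754, 1.18, 1.43 and 1.09 CPM in the non-injured fish (log2 fold change 5.19, SE 0.26, adjusted p = 9.0e-09), and the heme oxygenase HMOX1 rose (1.17, SE 0.24). The ferritin heavy chain FTH1 (-1.16, SE 0.18), the glutathione transferase gstr (-1.1, SE 0.19) and the mitochondrial peroxiredoxin PRDX3 (-0.66, SE 0.16) fell. Of 39 circadian clock genes 5 rose (12.8%, against 14.0% of all genes) and 13 fell (33.3%, against 13.3%), with a median of -0.41. The rises, near the share of all genes, numbered 3 without injured replicate 4 or non-injured replicate 1. Under library size scaling 6 rose and 4 fell (median -0.13), so the balance of this list depends on the scaling. The output genes dbpb (-0.77, SE 0.13) and hlfa (-1.02, SE 0.20) and the repressor CRY2 (-0.68, SE 0.12) fell, and the activators BMAL1 (ENSDARG00000006791) (1.08, SE 0.24) and bmal2 (2.31, SE 0.60) rose. The labels do not give the time of day of dissection.

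A few genes were nearly all or none. With at most 3 counts over the 4 non-injured mutants, 35 genes were called higher. Besides TNNT3, the leptins and the second ANKRD1 gene, they included SALL1 as SALL1 (ENSDARG00000075891), a zinc finger factor of development, with 1.26, 1.89, 0.988 and 2.26 CPM in the injured mutants and 0, 0.1603, 0 and 0 CPM in the non-injured mutants (adjusted p = 0.0012). The matrix metalloprotease gene mmp11b had 0.467, 1.06, 2.81 and 0.502 CPM in the injured mutants and 0, 0.1603, 0 and 0 CPM in the non-injured mutants (adjusted p = 0.0044). The fin fold actinodin and2 had 1.77, 1.01, 0.543 and 0.402 CPM in the injured mutants and 0, 0, 0 and 0 CPM in the non-injured mutants (adjusted p = 0.0014), a ratio of at least 22.4 to the floor of 3 counts over the group. All of these stayed below 3 CPM apart from TNNT3. In reverse, 12 genes had at most 3 counts over the 4 injured mutants and were called lower, such as the sodium channel SCN8A (ENSDARG00000005775), with 0, 0.0461, 0.0494 and 0 CPM in the injured mutants and 0.0539, 0.748, 1.37 and 0.576 CPM in the non-injured mutants (adjusted p = 0.0086). Non-injured replicate 1, at 0.0539 CPM, was at the scale of a single count there, like the injured fish with 0.0461 and 0.0494 CPM.

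Opposite moves of genes that share a symbol were not limited to cytochrome oxidase. Of 972 symbols carried by several tested IDs, 131 had more than 1 ID called, and in 25 of them IDs were called in opposite directions. This count was made after values had been seen. One was the amino acid transporter SLC43A2, where SLC43A2 (ENSDARG00000061120) had 7.93, 6.77, 8.35 and 5.98 CPM in the injured fish, against 0.377, 0.908, 0.159 and 0.192 CPM in the non-injured fish (log2 fold change 4.11, SE 0.87, adjusted p = 0.0035), while SLC43A2 (ENSDARG00000036848) had 33.3, 23.8, 35.4 and 23.7 CPM in the injured fish, against 129, 56.05, 63.6 and 94.5 CPM in the non-injured fish (log2 fold change -1.56, SE 0.39, adjusted p = 0.0080). Of the matrix proteins EFEMP2, EFEMP2 (ENSDARG00000094324) rose (3.21, SE 0.24) and EFEMP2 (ENSDARG00000020811) fell (-0.67, SE 0.16). Of the FHL1 genes, which encode LIM domain proteins of muscle, FHL1 (ENSDARG00000056653) rose (1.64, SE 0.23) and FHL1 (ENSDARG00000071498) fell (-0.95, SE 0.25). Such pairs share reads where their sequences are alike, and estimated counts divide those reads by probability.

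The injured fish did not reach the same level in every gene. Among the genes called higher, injured replicate 3 was the lowest of the 4 injured fish in 681 of 2306 (29.5%), against 536 to 552 for the other 3. Some fish is lowest in every gene, and an even split would give each fish 1 gene in 4. The same shares over all genes tested were not computed. Among the genes called lower, injured replicate 1 was the highest of its group in 736 of 2190 (33.6%), against 421 to 558 for the other 3. The non-injured fish were less even: of the genes called higher, replicate 1 was lowest of its group in 814 and replicate 2 highest in 819. The genes of widest spread among injured fish by the naming rule included some of serine and amino acid supply. PHGDH, the first enzyme of serine synthesis, had 4.11, 8.43, 1.14 and 5.02 CPM in the injured fish, against 0.216, 0.962, 0.106 and 0.3198 CPM in the non-injured fish (log2 fold change 3.52, SE 0.59, adjusted p = 0.00063). The neutral amino acid transporter SLC1A4 had 44.4, 88.7, 16.9 and 50.98 CPM in the injured fish, against 3.23, 2.73, 3.86 and 3.01 CPM in the non-injured fish (log2 fold change 3.97, SE 0.39, adjusted p = 7.7e-06). The stress gene sesn2 had 16.01, 23.4, 3.26 and 16.3 CPM in the injured fish, against 3.56, 1.496, 1.96 and 2.05 CPM in the non-injured fish (log2 fold change 2.7, SE 0.47, adjusted p = 0.00085). In all 3 replicate 2 was highest and replicate 3 lowest of the injured fish. Related genes looked up afterwards showed the same lowest fish: PSAT1, the next enzyme of serine synthesis, had 17.2, 17.4, 9.48 and 16.1 CPM in the injured fish, against 1.08, 0.748, 1.16 and 1.09 CPM in the non-injured fish (log2 fold change 3.88, SE 0.32, adjusted p = 1.3e-06), and the asparagine synthetase ASNS had 30.1, 42.3, 15.9 and 18.1 CPM in the injured fish, against 9.21, 6.52, 7.34 and 7.55 CPM in the non-injured fish (log2 fold change 1.79, SE 0.31, adjusted p = 0.00081). The myosin gene myhb spread differently, with replicate 2 far above the others at 6.91, 30.9, 9.88 and 4.62 CPM in the injured fish and 1.24, 0.321, 0.475 and 0.832 CPM in the non-injured fish (log2 fold change 4.19, SE 0.81, adjusted p = 0.0021).

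Set beside wild type, the mutant response held few genes that could be told apart. Injury raised 1956 genes (11.8%) and lowered 1971 (11.9%) in wild type. Of the 4496 genes called in mutants, 2650 were called in the same direction in wild type and 7 in the opposite one. A further 1839 were called in mutants and not in wild type, of which 1670 had the same sign there, so their absence from the wild type calls does not show a difference. The difference between the responses itself was called for 10 genes, 3 higher (0.0182%) and 7 lower (0.0424%) in mutants, while 1207 had an unadjusted p below 0.05. This count was 66 with DESeq2. Leaving out single mutant libraries gave 5 without non-injured replicate 1 or 3 and 6 without injured replicate 1 or non-injured replicate 2. Some lists gave unlike counts in the genotypes, such as the macrophage markers, with 20 of 24 higher in mutants and 9 of 24 in wild type, immediate early genes, with 25 and 11 of 48 higher, and proteasome subunits, with 8 and 25 of 54 lower. In none of these 3 lists was the difference called for any member.

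Of the 10 genes 3 had a higher response in mutants. rcan1a had 76.4, 58.5, 42.9 and 60.9 CPM in the injured fish, against 15.2, 15.98, 16.1 and 13.8 CPM in the non-injured fish in mutants, and 27.7, 23.3, 26.4 and 15.9 CPM in injured against 19.3, 19.3, 20.7 and 20.96 CPM in non-injured wild type. The injured mutants stood above all other fish, and the log2 fold change was 1.97 in mutants and 0.22 in wild type (difference 1.75, SE 0.25, adjusted p = 0.0099). The call held without any 1 mutant library and was lost with library size as the only scaling (adjusted p = 0.12). TRHDE, as TRHDE (ENSDARG00000109358), the ectoenzyme that degrades thyrotropin-releasing hormone, had 14.1, 12.2, 12.9 and 10.9 CPM in injured and 2.69, 2.56, 2.85 and 3.58 CPM in non-injured mutants, and 12.3, 11.2, 12.1 and 9.51 CPM in injured and 6.76, 6.34, 7.49 and 7.58 CPM in non-injured wild type (difference 1.42, SE 0.19, adjusted p = 0.0074). The injured fish of both genotypes reached similar levels there, and the non-injured mutants lay lowest; this call, too, was lost with library size only (adjusted p = 0.12). CCDC92, a coiled-coil protein, rose in mutants, with 13.3, 13.6, 6.77 and 12.8 CPM in injured and 1.94, 2.14, 3.75 and 2.43 CPM in non-injured fish, and fell in wild type, with 1.16, 1.004, 1.47 and 0.972 CPM in injured and 3.38, 4.63, 2.17 and 2.13 CPM in non-injured fish (difference 3.59, SE 0.42, adjusted p = 0.0025).

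In 2 of the 10 genes the response was seen in wild type and not called in mutants. DGLUCY, the glutamate cyclase, had 5.18, 4.38, 3.56 and 3.72 CPM in injured and 5.39, 4.38, 4.23 and 5.31 CPM in non-injured mutants, and 17.2, 16.5, 18.9 and 12.3 CPM in injured and 3.08, 4.39, 3.98 and 4.76 CPM in non-injured wild type (difference -2.2, SE 0.25, adjusted p = 0.0025). SERPINH1 (ENSDARG00000019949), a collagen chaperone, had a log2 fold change of 0.09 in mutants and 1.4 in wild type (difference -1.31, SE 0.23, adjusted p = 0.050), a call lost in 7 of the 8 fits without 1 mutant library (adjusted p up to 0.16). In non-injured mutants this gene was already at 43.2, 52.2, 46.1 and 52.5 CPM, against 27.4, 34.5, 21.1 and 22.2 CPM in non-injured wild type. The other 5 genes were a zinc finger gene and unnamed or clone-named genes at low levels, znf1094 having 0, 0.2304, 0.395 and 0.352 CPM in the injured fish, against 3.02, 3.04, 2.905 and 2.56 CPM in the non-injured fish in mutants and at most 0.284 CPM in any wild type fish (difference -5.23, SE 0.83, adjusted p = 0.030; without 1 mutant library the adjusted p reached 0.086). The mutants and the wild type fish were not described as siblings in the labels, so the allele and the background of the lines cannot be told apart.

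**Figure D5:**
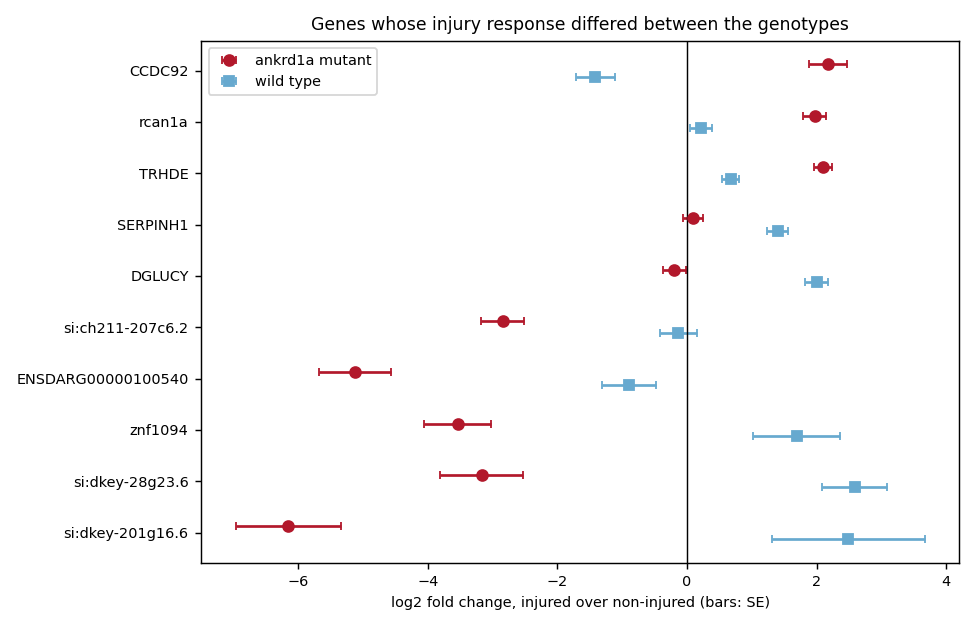
Log2 fold change of injured over non-injured fish, with its SE, in ankrd1a mutants (red circles) and wild type (blue squares) for the 10 genes whose difference was called, ordered by the difference. The mutant value is the higher one for CCDC92, rcan1a and TRHDE and the lower one for the other 7.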

How the data were processed

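Poly A RNA of 16 zebrafish muscle samples was sequenced with a kit that keeps strand, per the labels. The deposited table holds the authors' RSEM estimated counts (expected counts per gene, of which 94.29% were whole numbers) for 32520 genes, and each column was matched to its sample by name, with 0 columns left over. Per the submitters' processing notes the tools were STAR (2.7.0 and 2.7.10 are listed), fastp 0.23.4 and RSEM 1.3.3. Which build, annotation and strand option were used for counting was not given in the sources used here.

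Estimated counts were rounded and tested in R 4.3.3 with edgeR 4.0.16 (limma 3.58.1): filterByExpr (min.count 10, min.total.count 15), TMM scaling, and robust quasi-likelihood fits to all 16 libraries with 4 group means, which share 1 estimate of the spread (biological coefficient of variation 31.3%). Contrasts were injured over non-injured mutants, injured over non-injured wild type, and their difference, with Benjamini-Hochberg adjustment over 16514 genes, two-sided. SE is the absolute log2 fold change divided by the square root of F. DESeq2 1.42.0 and other scaling, filter, sample and block settings were alternatives. The method was tested on simulated data.

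A table of names gave symbols to 29201 IDs; several IDs can carry 1 symbol, so IDs are printed where needed, and no sequence is shown. List members were matched by symbol or by RefSeq synonyms (GRCz12tu, names only), and 8 false matches were dropped. Members and lists were chosen with earlier results of these data known. Named genes are the ANKRD1 IDs, called genes without overlap between groups and of smallest p, largest gain or loss in CPM, or at most 3 counts in the other group, up to 5 called members per list and direction by p, genes of smallest p for the difference, and genes of widest spread among injured fish. Chosen after their values were seen were myhc4, MYOD1, MYF5, mymx, CHRNE, PSAT1, ASNS, SLC43A2, the MT- genes, COX6A1 (ENSDARG00000054588), COX5B (ENSDARG00000068738), COX7A2 (ENSDARG00000110700), cox8b, and DGLUCY and SERPINH1, which were not called in mutants. ATP6V0C (ENSDARG00000057853) was chosen in the same way.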

Additional observations from a re-analysis of the deposited data

Results flagged for a closer look

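The response to injury differed between the genotypes by the test of the difference itself for 10 genes, each given here as the log2 fold change in mutants minus that in wild type. The difference was 3.59 for CCDC92, 1.75 for rcan1a and 1.42 for TRHDE. It was -1.31 for SERPINH1, -2.2 for DGLUCY and -2.71 for si:ch211-207c6.2. The remaining 4 genes were scarce, with -4.23 for ENSDARG00000100540, -5.23 for znf1094, -5.75 for si:dkey-28g23.6 and -8.64 for si:dkey-201g16.6, and values of that size rest on groups with few or no counts.

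In 21 of 226 groups of 4 mutant fish examined, over genes named with a value per fish and over summed gene lists, 1 fish lay apart from the other 3 (its gap to the nearest fish, divided by the group's range, was over Dixon's 95% critical value). Chance would mark about 1 group in 20 of independent, normally spread values. These groups were not such a set, since some genes were named for wide spread among injured fish or for few counts. A group with counts in only 1 fish is marked whatever the value. The count of marked groups therefore cannot be set against that rate. Injured replicate 3 was the fish apart in 6 of these groups. It had 4729 CPM of myhz2, against 7578 to 7822 CPM in the other injured fish, and 90.05 CPM of ANKRD1 (ENSDARG00000075263), against 140.8 to 148.4. It also had 24.5 CPM of COX5B (ENSDARG00000015978), against 31.09 to 32.19, 9.484 CPM of PSAT1, against 16.12 to 17.37, and 6.767 CPM of CCDC92, against 12.81 to 13.64. Its WNT, NOTCH and FGF genes summed to 893.7 CPM, against 841.4 to 848.3 in the others.

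Other injured fish stood apart in single values. Replicate 4 had 48.97 CPM of RYR1 (ENSDARG00000011422), against 77.15 to 81.05 in the other injured mutants. Replicate 2 had 0.553 CPM of igfn1.2, against 0.09879 to 0.14. Replicate 1 had 374 CPM of COX6A1 (ENSDARG00000054588), against 284.4 to 296.4, and its chemokine, interleukin and TNF family genes summed to 649.9 CPM, against 577.4 to 588.3.

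Among the non-injured mutants, replicate 2 was the fish apart in 3 list sums. Its epidermal markers summed to 1421 CPM, against 642.2 to 756.9 in the other non-injured fish, its slow fibre markers to 3170, against 4392 to 4481, and its Schwann cell markers to 803.1, against 632.1 to 655.4. It was also the only non-injured mutant with any counts of mmp11b (0.1603 CPM), SALL1 (ENSDARG00000075891, 0.1603 CPM) and lepb (0.05343 CPM), and replicate 1 the only one with any of TNNT3 (ENSDARG00000030270, 0.1617 CPM). Replicate 1 had 56890 CPM of MT-CO1, against 44560 to 45570. Replicate 4 had 0.1279 CPM of bub1, against 0.2113 to 0.2156, and in that fish complement, phagocytosis and lipid clearance genes summed to 814.1 CPM, against 687.7 to 704.8, and proteasome genes to 2023, against 1721 to 1737.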

How the results depend on the processing

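Scaling by library size alone put the median gene in mutants at 0.257 (log2). It gave 779 genes lower in mutants, 3673 higher and 537 lower in wild type, and a difference called for 6 genes, 1 of them higher. DESeq2 called the difference for 66 genes (43 higher, 23 lower), and without 1 mutant library at a time the count was 5 to 13 (3 to 7 higher, 2 to 6 lower). Library size alone also left fewer falls in lists described above: 0 of 98 matrix, 1 of 74 lysosome, 2 of 53 complement, 2 of 54 chemokine, 0 of 66 TGF-beta, 1 of 85 WNT, 1 of 55 myogenic, 2 of 45 chaperone, 3 of 110 cytoskeletal, 0 of 54 proteasome, 4 of 45 antioxidant, 2 of 13 adipocyte and 3 of 11 erythrocyte genes. It gave 26 rises in the WNT and 38 in the secretory list. With all other settings, the counts of genes higher and lower in mutants stayed within 1.5 times of those reported, at 1791 to 2101 higher and 1639 to 2019 lower without 1 library. Some genes not called in mutants changed sign. With library size alone the log2 fold change was 0.0945 for DGLUCY, 0.219 for MYOD1, 0.0704 for CHRNE and 0.221 for myhc4. Without 1 library at a time it ran from -0.134 to 0.0499 for MYOD1, above 0 without non-injured replicate 4, and from -0.199 to 0.207 for myhc4, above 0 without non-injured replicate 4 or injured replicate 1 (0.013). For the uncalled COX7A2 (ENSDARG00000110700) it was -0.0149 with the replicate block and ran from -0.222 to 0.211 without 1 library.

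Of the 4496 genes called in mutants, 2802 stayed called in every fit that left out 1 mutant library. Of 336 called genes that the naming rule gave, 286 did, and the 167 of them described in the report were taken from those 286, so that they are steadier than the rest. With library size alone 6 described genes lost the call, with adjusted p from 0.063 to 0.33 (RPA1, EFEMP2 as ENSDARG00000020811, ATP6V1G1, PRDX3, dbpb and FHL1 as ENSDARG00000071498).

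Same-numbered mutant fish showed little sign of pairing in their values, which does not show whether they were handled as pairs. Deviations from the group means of same-numbered fish correlated at 0.134, -0.178, 0.0669 and 0.0211. With the replicate block 2187 genes were higher and 2087 lower in mutants, and the difference was called for 4, of which 1 was lower. In simulated counts of this depth and spread, 48 of 100 genes changed 2-fold and 73 of 100 changed 4-fold were called. Only 200 of 16514 genes were changed in the simulation, against 4496 called in the mutants. The adjusted p depends on the share of changed genes, so these rates are not those of the real data. A gene not called may still have changed.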
